A study of Mus musculus with 12 samples.

Results

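The levels of 10 interferon-inducible GTPases were followed through total RNA-seq of 12 mouse livers, 3 of each of 4 genotypes. They were the guanylate-binding protein (GBP) genes Gbp2, Gbp3, Gbp6, Gbp7, and Gbp9 and the immunity-related GTPase (IRG) genes Irgm1, Irgm2, Igtp, Iigp1, and Tgtp1. The members are a fixed list of gene symbols whose rule uses no measured value, and all 10 were found among the 40551 genes of the count files through their Ensembl identifiers. All 10 also had enough counts to be tested, with 88 to 20795 reads per library, as 10 of 15070 tested genes.

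The 4 genotypes were wild type (WT), Mcl1Δhep, Sting1-/-, and Mcl1Δhep Sting1-/-. Mcl1Δhep mice carry floxed Mcl1 and a Cre transgene under the albumin promoter (Alb-Cre), so that Mcl1, which protects cells from apoptosis, is lost from hepatocytes and kept in the other liver cells. Sting1-/- mice lack STING, the adaptor of the cytosolic DNA sensor cGAS, in all cells, and the allele is not described in the sources used here. Mcl1Δhep Sting1-/- mice came from crossing the other two lines. No treatment was given. The WT and Mcl1Δhep livers were described as 2 months old, mice of both sexes were used, and neither the age nor the sex nor the strain of a single library is labelled. The labels also name no individual animals. The paper calls the replicates biological in its RNA-seq plots of macrophage genes, which cover WT, Mcl1Δhep, and Mcl1Δhep Sting1-/- livers. The p-values measure the spread between these samples, which may in part be technical. Because RNA came from whole liver, fewer cells of a type and less RNA per cell cannot be told apart in any value given here.

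Interferon-gamma, made mainly by T cells and natural killer (NK) cells, binds a receptor of IFNGR1 and IFNGR2, whose kinases JAK1 and JAK2 start the signal to the nucleus. Target promoters carry gamma-activated sites (GAS), and the response also induces the transcription factor IRF1, which binds interferon-stimulated response elements (ISRE), the same kind of site through which type I interferons act. GBP and IRG proteins are among the most strongly induced products of this response in mouse cells, hepatocytes and macrophages included. GBPs, large GTPases related to dynamins, coat pathogen vacuoles and bacteria and promote inflammasome activation. Among the IRGs, Iigp1 and Tgtp1 are effectors that load onto vacuoles, whereas Irgm1, Irgm2, and Igtp are regulators that hold the effectors inactive on the membranes of the host.

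The members lie in a few clusters of related genes (GRCm39, GENCODE vM39). Gbp7 (ENSMUSG00000040253, 142236044 to 142255910), Gbp3 (ENSMUSG00000028268, 142265731 to 142278979), and Gbp2 (ENSMUSG00000028270, 142326349 to 142343779) follow each other on chromosome 3. Gbp9 (ENSMUSG00000029298, 105224332 to 105287452) and Gbp6 (ENSMUSG00000104713, 105418568 to 105443751) are on chromosome 5. Irgm1 (ENSMUSG00000046879, 48752795 to 48763164), Tgtp1 (ENSMUSG00000078922, 48876154 to 48884999), Igtp (ENSMUSG00000078853, 58089840 to 58098417), and Irgm2 (ENSMUSG00000069874, 58090444 to 58113615) are on chromosome 11, and Iigp1 lies elsewhere. Some of these loci share annotated exon sequence on 1 strand with a neighbour. The shared stretch was 1726 bases for Gbp6 with Gm43302, 637 for Gbp7 with the processed pseudogene Gm43802, 317 for Tgtp1 with Gm12185, 162 for Igtp with Irgm2, and 107 for Gbp9 with Gbp4 and with Gbp8. On the opposite strand, exon sequence was shared with noncoding genes over 497 bases for Irgm1 (Gm74350), 307 for Gbp7 (Gm66604), 289 for Irgm2 (ENSMUSG00000127942), 268 for Gbp9 (Gm72293), and 24 for Gbp2 (Mir6381). Whether the counting used strand or split shared reads is not given in the sources used here, so reads of these genes and their partners may not be told apart, and near-identical paralogs such as Tgtp2 add to this for Tgtp1. Gbp3 and Iigp1 shared no annotated exon sequence.

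The promoters are shown because both site types of the response are written in several of them. In the 300 bases from 250 before to 50 after the start of the canonical transcript, the ISRE-type letters (GAAA, any 2 bases, and GAAA), searched on both strands, were found in 6 of 10 members (Gbp2, Gbp7, Irgm1, Irgm2, Iigp1, and Tgtp1). The GAS letters (TTCNNNGAA) were found in 4 of 10 (Gbp7, Irgm2, Iigp1, and Tgtp1), each of which also held the first. Among the 15012 promoters of tested genes, 3.79% held the ISRE-type letters and 7.83% the GAS letters. The windows of Gbp3, Gbp6, Gbp9, and Igtp held neither, which says only that these letters are not in this window. The following stretches of the reference genome (GRCm39) are printed 5′ to 3′ in the direction of the gene, with matches in capitals. That of Gbp2 (chr3:142326355-142326384) holds the ISRE-type letters as read from the opposite strand, and that of Gbp7 (chr3:142235990-142236019) holds 2 GAS matches, its ISRE-type match lying outside the stretch. That of Irgm1 (chr11:48762255-48762284, minus strand) holds 2 ISRE-type matches that overlap each other. Those of Irgm2 (chr11:58090333-58090362) and Tgtp1 (chr11:48883136-48883165, minus strand) hold a GAS match followed directly by an ISRE-type match, in nearly the same 30 bases, as does that of the paralog Tgtp2 (chr11:48955095-48955124, minus strand).
Gbp2: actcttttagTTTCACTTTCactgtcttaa
Gbp7: tTTCCAGGAAaagcagaagcTTCTCAGAAa
Irgm1: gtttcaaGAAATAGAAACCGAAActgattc
Irgm2: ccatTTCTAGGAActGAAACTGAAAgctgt
Tgtp1: ccatTTCCAGGAAtcGAAACTGAAAcctac
Tgtp2: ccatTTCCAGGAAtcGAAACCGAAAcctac

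Each library held 28826367 to 45266387 reads on genes. Mcl1, the gene deleted in hepatocytes, had 90.2 to 103.8 CPM (counts scaled to library size by the TMM method and given per 1e+06) in WT livers and 25.0 to 34.0 in Mcl1Δhep livers, a log2 fold change of -1.77 (SE 0.16, edgeR adjusted p = 0.000605). Sting1 had 2.11 to 2.53 CPM in WT livers and 1.16 to 2.70 in Sting1-/- livers, which overlapped, so its gene count does not check that label. It rose in Mcl1Δhep livers, where every library had 3.67 CPM or more (log2 fold change 0.99, SE 0.29, edgeR adjusted p = 0.0324) and had 1.90 to 2.53 in Mcl1Δhep Sting1-/- livers, below every Mcl1Δhep library (-1.05, SE 0.29, adjusted p = 0.134 with edgeR and 0.0207 with DESeq2). The 4 Y-linked genes examined summed to 157 CPM in WT replicate 2, 152 in WT replicate 3, and 141 in Mcl1Δhep Sting1-/- replicate 1, and to at most 0.190 in the other 9 libraries. Small structured RNAs took 2.37% of the counts in Mcl1Δhep replicate 2, 1.36% in Mcl1Δhep replicate 3, and 0.172 to 0.897% in the other 10 libraries. Hepatocyte markers were abundant in every library, with a summed level of 91337 to 154328 CPM.

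The GTPases differed from each other far more than any of them differed between genotypes. Genes were compared per summed length of their annotated exons, in TPM (length-scaled counts that sum to 1e+06 in a library). On this scale Iigp1 (ENSMUSG00000054072, chromosome 18, 60506680 to 60525706) stood highest with a mean of 244 TPM over the 12 libraries, 51.9% of the summed TPM of the 10 genes. Irgm2 followed with 68.5, Igtp with 44.2, Irgm1 with 35.5, Gbp2 with 23.4, Gbp7 with 21.6, and Gbp3 with 15.2. The lowest means were 8.06 for Gbp6, 6.64 for Tgtp1, and 4.08 for Gbp9. Of the effectors that load onto vacuoles, Iigp1 had the highest level of the set and Tgtp1 one of the lowest, with the 3 regulators between them. Which annotated exons were transcribed, and reads shared with neighbours or paralogs as for Tgtp1, Gbp6, and Gbp9, may shift these levels, which was not tested. The order held in single livers for most neighbours: Iigp1 exceeded Irgm2, Irgm1 exceeded Gbp2, Gbp3 exceeded Gbp6, and Tgtp1 exceeded Gbp9 in 12 of 12 libraries. It did not hold for Igtp over Irgm1, which was met in 8 libraries, or for Gbp2 over Gbp7, which was met in 6, so those neighbours did not differ beyond their spread.

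**Figure D1:**
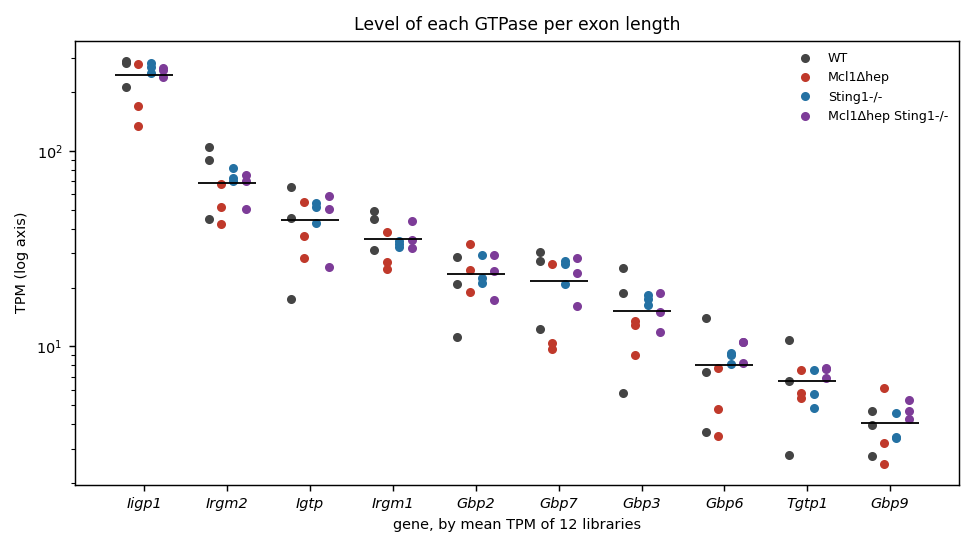
Level of each GTPase in TPM on a log axis, 1 point per library coloured by genotype, with a bar at the mean of the 12 libraries. Iigp1 (mean 244 TPM) lies above every other gene in all 12 libraries, and the points of Gbp2 and Gbp7 overlap.

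The WT livers had the largest SD of the 4 genotypes for 8 of 10 members, the exceptions being Gbp9 and Iigp1 (widest in Mcl1Δhep livers). In WT replicates 1, 2, and 3, Iigp1 had 470, 384, and 527 CPM, respectively, and Irgm2 had 103, 47.7, and 96.5. Gbp3 had 21.0, 7.0, and 30.6 CPM in the same libraries, and Igtp had 78.7, 22.7, and 59.1. WT replicate 2 was the lowest WT library for each of these genes. Over all 12 libraries, it was the lowest for 7 of 10 members (Gbp2, Gbp3, Gbp6, Gbp9, Irgm2, Igtp, and Tgtp1), and Mcl1Δhep replicate 2 was the lowest for the other 3 (Gbp7, Irgm1, and Iigp1). WT replicate 3 was the highest library for 4 members (Gbp3, Gbp6, Irgm1, and Tgtp1). The mean of the centred log2 CPM of the 10 genes was -0.76 in WT replicate 2 and 0.47 in WT replicate 3. Both of these libraries held Y-linked reads, whereas WT replicate 1 and every Mcl1Δhep and Sting1-/- library had at most 0.190 CPM of them. Between Mcl1Δhep and WT livers, and between Sting1-/- and WT livers, genotype and what goes with Y-linked reads, such as sex, can thus not be fully told apart. The SD of Tgtp1 was 3.80 CPM among WT livers and 0.0978 among Mcl1Δhep livers, and that of Gbp3 was 11.9 and 2.41, respectively.

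**Figure D2:**
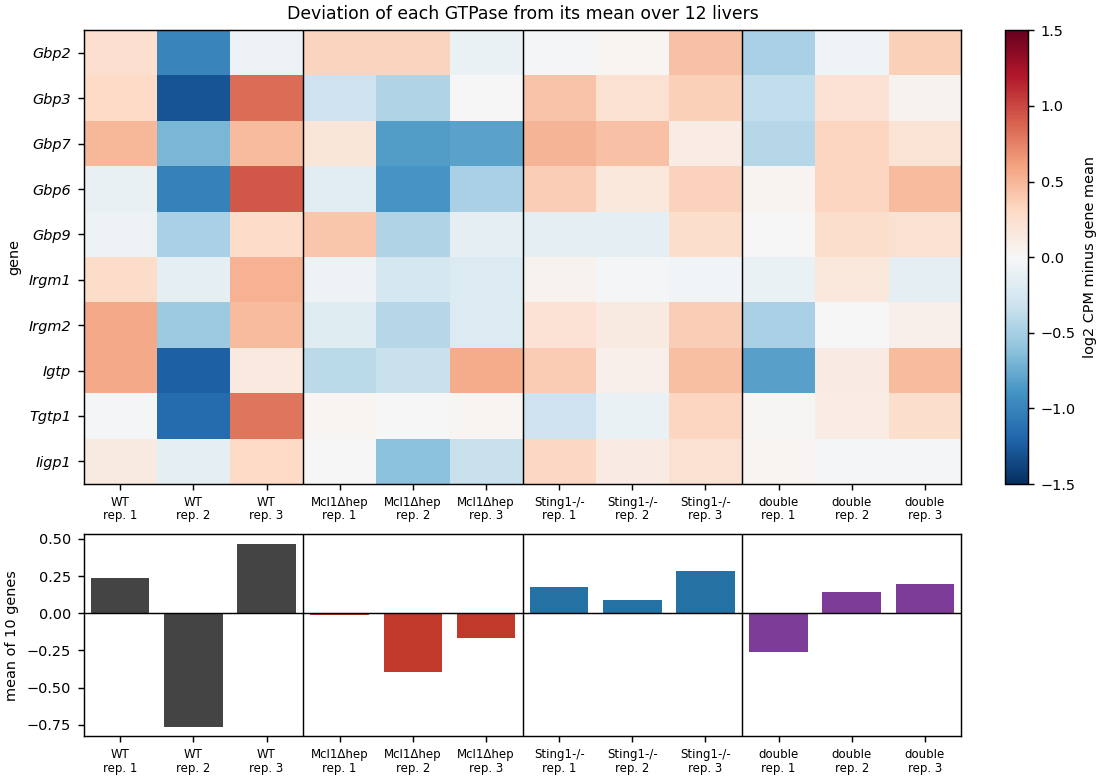
Top, log2 CPM of each GTPase in each library minus its mean over the 12 libraries (red higher, blue lower). Bottom, the mean of the 10 genes per library, which was lowest in WT replicate 2 (-0.76) and highest in WT replicate 3 (0.47), 2 libraries of 1 genotype.

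The 10 genes varied together from liver to liver. Pearson's r of log2 CPM over the 12 libraries was positive for 45 of 45 pairs, from 0.02 for Gbp2 with Irgm1 to 0.87 for Gbp3 with Irgm2, with a median of 0.61. With the genotype means removed, it was positive for 45 pairs with a median of 0.70. Without WT replicate 2, it was positive for 41 pairs with a median of 0.48. The libraries share depth and RNA composition across genes, and these correlations are a description. The share of variance that lay between genotype means exceeds 0 through spread alone, as each mean rests on 3 libraries. It was 4.37% for Tgtp1 and 10.6% for Igtp, but 45.7% for Irgm1 and 59.7% for Iigp1. The median over all tested genes was 43.5%, so 8 of the 10 members varied less by genotype than the median gene did.

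Tested genes other than the GTPases listed here were ranked by how closely their log2 CPM resembled the mean of the 10. The closest were Lama5 (Pearson's r = 0.91, Spearman's rho = 0.77, n = 12), Veph1 (r = 0.89, rho = 0.72), H2-Q4 (r = 0.88, rho = 0.50), Gm43302 (r = 0.88, rho = 0.86), and H2-Q6 (r = 0.87, rho = 0.75). H2-Q4 and H2-Q6 encode nonclassical class I histocompatibility molecules, and Lama5 encodes a laminin chain of basement membranes. Gm43302 shares exon sequence with Gbp6 and Gbp10, so its likeness is not independent of the members. Without WT replicate 2 and Mcl1Δhep replicate 2, the 2 libraries farthest from the median, r was 0.80 for Lama5, 0.67 for Veph1, 0.63 for H2-Q4, 0.81 for Gm43302, and 0.60 for H2-Q6.

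The comparison of Mcl1Δhep with WT livers asks how loss of Mcl1 in hepatocytes, a model of chronic liver injury, changes the response. Of the 10 GTPases, 8 had a negative log2 fold change (50.3% of all tested genes did), but 0 passed the test (edgeR adjusted p under 0.05), against 20.2% of the genes (10.8% higher and 9.43% lower). The median log2 fold change was -0.41, whereas that of all tested genes was -0.00. By DESeq2, 0 members passed against 25.9% of genes, and at an unadjusted p under 0.05 edgeR gave 2 members (Irgm1 and Iigp1, both lower) against 36.9%. No member separated the 3 Mcl1Δhep from the 3 WT libraries, which 33.3% of tested genes did.

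**Figure D3:**
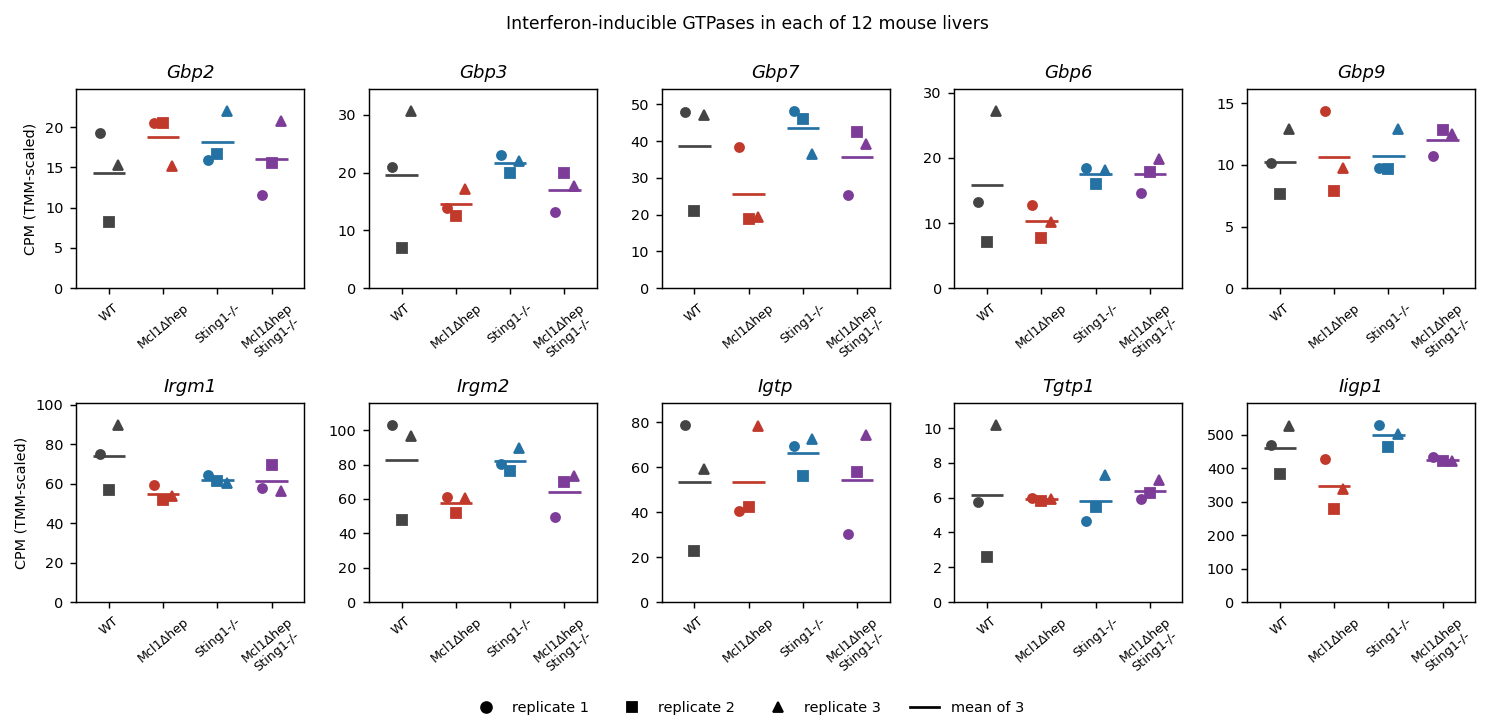
CPM of each GTPase by genotype, 1 point per library with its replicate number as the symbol and a bar at the mean of 3. The WT points of Gbp3, Gbp6, Igtp, and Tgtp1 span the range of all other genotypes, and the 3 Mcl1Δhep and 3 WT libraries overlap for every gene.

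Among the IRG regulators, Irgm1, which also acts in the clearance of mycobacteria, had 75.2, 56.8, and 89.8 CPM in WT livers and 59.2, 51.7, and 53.9 in Mcl1Δhep livers. All 3 Mcl1Δhep values lay at the low end, and only WT replicate 2 fell among them. Its log2 fold change was -0.43 (95% interval -0.78 to -0.08, edgeR adjusted p = 0.0783). Irgm2 had 61.2, 51.9, and 60.5 CPM in Mcl1Δhep livers beside the WT values given above, with a log2 fold change of -0.51 (interval -1.05 to 0.03, adjusted p = 0.158). Igtp had 40.3, 42.1, and 78.0 CPM in Mcl1Δhep livers, the first 2 between WT replicates 2 and 3 and the last beside WT replicate 1, and the mean of both groups was 53.5 CPM (log2 fold change -0.00072).

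The effector Iigp1 had 428, 278, and 338 CPM in Mcl1Δhep livers, of which the first lay within the WT range of 384 to 527 and the other 2 below it. Its log2 fold change was -0.40 (interval -0.79 to -0.02, adjusted p = 0.119). Both Mcl1Δhep libraries with the lower values also had the higher shares of small structured RNAs (2.37% and 1.36%, against 0.283% in the first). With that share as a covariate, the median of the 10 members was -0.30 and 0 were called. Tgtp1 had 5.96, 5.78, and 5.95 CPM in Mcl1Δhep livers, close to WT replicate 1 (5.75) and between the other WT livers (2.61 and 10.2), with a log2 fold change of -0.06 (interval -0.84 to 0.71).

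Of the GBPs, Gbp7 had 47.8, 21.1, and 47.2 CPM in WT livers and 38.4, 18.9, and 19.5 in Mcl1Δhep livers, with 1 library of each group out of place. Its log2 fold change was -0.59 (interval -1.34 to 0.15, adjusted p = 0.230). Gbp6 had 13.2, 7.09, and 27.1 CPM in WT livers and 12.8, 7.74, and 10.2 in Mcl1Δhep livers, for -0.62 (interval -1.42 to 0.18). WT replicate 2 was below every Mcl1Δhep library for Gbp6, although the WT mean was higher. Gbp3 had 13.8, 12.5, and 17.2 CPM in Mcl1Δhep livers, all between the WT extremes, for -0.43 (interval -1.25 to 0.40). Gbp2, a GBP that coats the vacuoles of Toxoplasma, had the highest log2 fold change of the members, 0.40 (interval -0.24 to 1.03, edgeR adjusted p = 0.345). It had 19.3, 8.19, and 15.3 CPM in WT livers and 20.6, 20.5, and 15.2 in Mcl1Δhep livers. Gbp9 had 7.62 to 12.9 CPM in WT and 7.86 to 14.4 in Mcl1Δhep livers, for 0.06 (interval -0.46 to 0.58). The intervals of Igtp (-0.92 to 0.92) and Tgtp1 were wide in both directions, so that at 3 livers per group neither a rise nor a fall of these genes was detectable unless large.

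The result in this comparison turned on single libraries. Without WT replicate 2, the median of the 10 was -0.56 and 3 members were called lower: Gbp3 (-0.83, edgeR adjusted p = 0.0420), Irgm1 (-0.59, 0.0387), and Irgm2 (-0.79, 0.0285). Without WT replicate 3, the median was 0.03 and 0 were called. Without Mcl1Δhep replicate 1, Gbp7 (-1.01, adjusted p = 0.0386) and Iigp1 (-0.58, 0.0178) were called lower. In the 4 livers of these genotypes without Y-linked reads, of which 1 was WT, the median was -0.45 and 0 members were called.

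**Figure D4:**
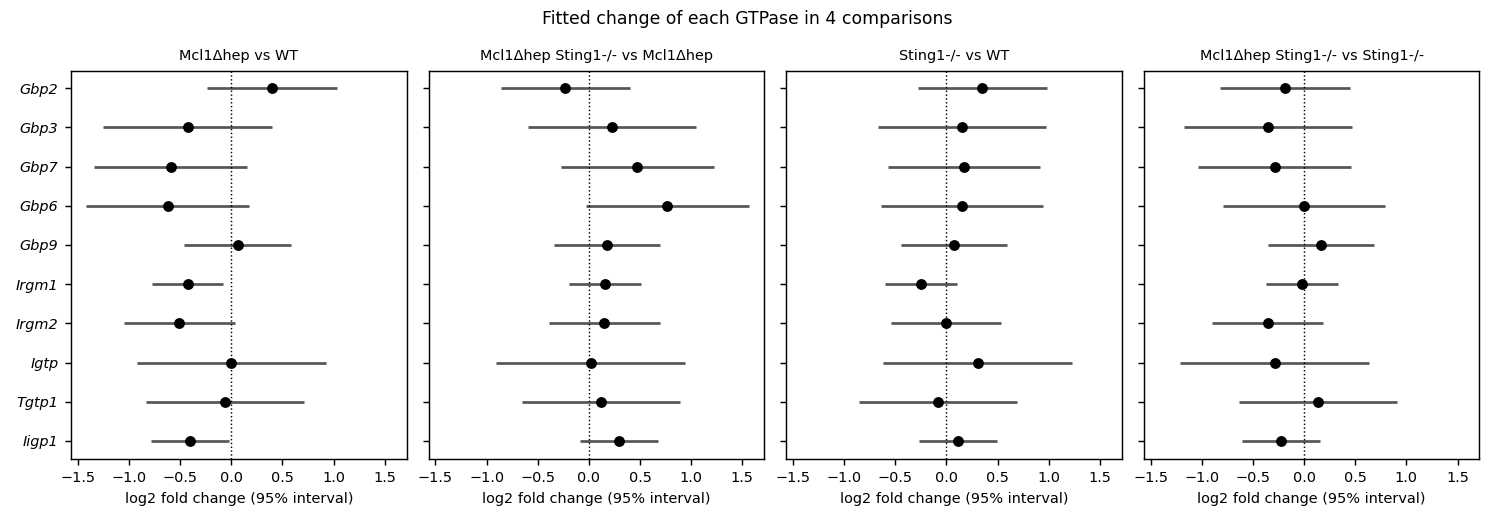
Fitted log2 fold change of each GTPase with its 95% interval from edgeR's quasi-likelihood fit, in 4 comparisons of genotypes. Only the intervals of Irgm1 and Iigp1 between Mcl1Δhep and WT livers leave out 0, before adjustment for the 15070 genes tested.

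The comparison of Mcl1Δhep Sting1-/- with Mcl1Δhep livers asks what loss of STING does in the injured liver. Of the 10 GTPases, 9 had a positive log2 fold change (49.8% of all tested genes did), with a median of 0.16 against -0.00 for all tested genes, and 0 passed the test in either tool or at an unadjusted p under 0.05. Over all genes, edgeR called 0%, DESeq2 4.74%, and 20.6% had an unadjusted p under 0.05. Gbp6 was the only member whose groups did not overlap, which 18.2% of tested genes did. It had 14.6, 17.9, and 19.9 CPM in Mcl1Δhep Sting1-/- livers, each above the 3 Mcl1Δhep livers, and a log2 fold change of 0.77 (interval -0.03 to 1.56, adjusted p = 0.256). Iigp1 had 434, 421, and 422 CPM, the least scattered group for this gene, and overlapped Mcl1Δhep replicate 1 at 428 (log2 fold change 0.29, interval -0.09 to 0.67). Gbp7 had 25.3, 42.4, and 39.2 CPM, for 0.47 (interval -0.27 to 1.22). Gbp2 was the member with the negative value (-0.23, interval -0.86 to 0.40). The other members had 0.02 (Igtp), 0.12 (Tgtp1), 0.15 (Irgm2), 0.16 (Irgm1), 0.17 (Gbp9), and 0.22 (Gbp3). The Mcl1Δhep libraries are shared with the preceding comparison, so a low Mcl1Δhep library moves both in opposite directions.

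Between Sting1-/- and WT livers, where hepatocytes keep Mcl1, the median of the 10 was 0.13 against 0.00 for all genes, with 7 positive (50.5% of genes) and 3 negative values. No member passed the test with edgeR or DESeq2 or at an unadjusted p under 0.05. Over all genes, edgeR called 0%, DESeq2 0.326%, and 5.45% had an unadjusted p under 0.05. Sting1-/- livers were the most uniform group for several members, with 20.01 to 23.0 CPM of Gbp3 and 60.5 to 64.6 of Irgm1, all inside the WT range. No member's groups were apart, against 12.5% of tested genes. The fold changes ranged from -0.25 for Irgm1 (interval -0.60 to 0.10) to 0.35 for Gbp2 (interval -0.28 to 0.99). Between these lay -0.085 for Tgtp1, -0.0044 for Irgm2, 0.074 for Gbp9, 0.11 for Iigp1, 0.15 for Gbp3 and for Gbp6, 0.17 for Gbp7, and 0.30 for Igtp. The median was -0.16 without WT replicate 2 and -0.03 without the 3 libraries that held Y-linked reads, and with the Y-linked share as a covariate it was -0.08.

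Between Mcl1Δhep Sting1-/- and Sting1-/- livers, the effect of Mcl1 deletion in the absence of STING, the median was -0.21 against -0.01 for all genes, with 8 negative (51.5% of genes) and 2 positive values. No member passed the test with edgeR (0.803% of genes), DESeq2 (3.16%), or at an unadjusted p under 0.05 (11.3%). Of the 10, 3 were lower in every Mcl1Δhep Sting1-/- library than in any Sting1-/- library, as were 10.8% of tested genes. Iigp1 had 421 to 434 CPM against 463 to 529, and Irgm2 had 49.7 to 73.1 against 76.4 to 89.6. Gbp3 reached 19.93 CPM in the first group and was as low as 20.01 in the second, so that those groups all but touched. The log2 fold changes were -0.23 for Iigp1 (interval -0.61 to 0.16), -0.35 for Irgm2 (interval -0.90 to 0.19), and -0.35 for Gbp3 (interval -1.17 to 0.47). The other members had -0.29 (Igtp), -0.29 (Gbp7), -0.19 (Gbp2), -0.021 (Irgm1), -0.00076 (Gbp6), 0.14 (Tgtp1), and 0.16 (Gbp9). The median shrank to -0.0032 without Mcl1Δhep Sting1-/- replicate 1 and to -0.035 with the Y-linked share as a covariate.

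The difference between both Mcl1 effects, with STING deleted minus with STING intact, was tested as an interaction. Its median over the 10 genes was 0.17 against -0.01 for all genes, and 0 passed with edgeR, with DESeq2, or at an unadjusted p under 0.05, against 0%, 1.14%, and 14.4% of tested genes. The median was -0.056 without WT replicate 3 and 0.46 without WT replicate 2. The lowest unadjusted p belonged to Irgm1, with a difference of 0.41 (interval -0.09 to 0.90, edgeR adjusted p = 0.422). The differences were -0.58 for Gbp2, -0.29 for Igtp, 0.08 for Gbp3, 0.10 for Gbp9, 0.16 for Irgm2, 0.18 for Iigp1, 0.20 for Tgtp1, 0.31 for Gbp7, and 0.62 for Gbp6. The interval of Gbp6 ran from -0.50 to 1.74 and that of Igtp from -1.59 to 1.02, so that at this number of livers they leave room for a difference in either direction.

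Other genes of the GTPase families were examined as a list, of which 15 were matched and 14 tested. Of these, 1 gene, Gbp11, fell in Mcl1Δhep livers by edgeR, 4 passed with DESeq2, and 10 of the 14 had a negative log2 fold change, with a median of -0.34. Over all tested genes, edgeR called 9.43% lower, DESeq2 called 25.9%, and 50.3% were negative. The 3 Mcl1Δhep and 3 WT libraries did not overlap for 33.3% of tested genes. Gbp11 had 3.83, 6.05, and 9.61 CPM in WT livers and 1.72, 1.44, and 3.57 in Mcl1Δhep livers, and every Mcl1Δhep library was below every WT library. Its log2 fold change was -1.52 (SE 0.38, edgeR adjusted p = 0.0187). The call was lost without WT replicate 3 (-1.13, adjusted p = 0.0746), without Mcl1Δhep replicate 2 (-1.29, 0.0789), and in livers without Y-linked reads (-0.77, 0.428). With all 12 libraries it was also lost with the Y-linked share as a covariate (-1.05, 0.114) or the percentage of small structured RNAs (-1.97, 0.0843).

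Gbp2b, the paralog next to Gbp2, had 4.62, 2.91, and 4.56 CPM in WT livers and 1.30, 0.520, and 0.917 in Mcl1Δhep livers, which did not overlap. Its log2 fold change of -2.06 (SE 0.70) was not past the threshold with edgeR (adjusted p = 0.0571) and was with DESeq2 (adjusted p = 0.0340). In Mcl1Δhep Sting1-/- livers it had 0.768, 1.32, and 7.63 CPM, 1 library within the Sting1-/- range (3.58 to 8.78) and 2 near the Mcl1Δhep values. Gbp10 had 18.4, 6.58, and 45.8 CPM in WT livers and 8.88, 4.16, and 10.8 in Mcl1Δhep livers, with the same wide WT spread as Gbp6, for -1.56 (SE 0.54, edgeR adjusted p = 0.0596). Among 12 leave-one-out fits, Gbp10 was called lower in 1 (without WT replicate 2) and Gbp2b in 2 (without Mcl1Δhep Sting1-/- replicate 1 or 3). Gbp2b was also called lower by edgeR with the replicate number as a block (-2.05, adjusted p = 0.0435) and with the Y-linked share as a covariate (-2.88, 0.0416), and was not with the percentage of small structured RNAs (-1.71, 0.379). Gbp8 went the other way, at 1.36 to 2.58 CPM in WT and 3.07 to 3.27 in Mcl1Δhep livers, without overlap (log2 fold change 0.58, adjusted p = 0.166). In the other comparisons, edgeR called 0 of the 14, against 0% of tested genes or, between Mcl1Δhep Sting1-/- and Sting1-/- livers, 0.803%. Between Mcl1Δhep Sting1-/- and Mcl1Δhep livers, DESeq2 called 1 of the 14, against 4.74% of genes. There 2 had an unadjusted p under 0.05 by edgeR, both higher, against 20.6% of genes, and the median was 0.21. In the interaction the median was 0.65 against -0.01 for all genes, with 1 of 14 at an unadjusted p under 0.05 by edgeR, against 14.4%.

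The inducer of the GTPases could not be measured. Ifng itself had 0 to 9 reads per library and was not tested, and 0 of the 8 interferon genes listed had enough reads for a test. Of 4 tested cytokines that induce it, 0 passed with edgeR and 1 with DESeq2 between Mcl1Δhep and WT livers, and the median log2 fold change was 0.24. At an unadjusted p under 0.05, edgeR gave 1 higher and 1 lower. Among all tested genes, edgeR called 20.2%, DESeq2 called 25.9%, and 36.9% had an unadjusted p under 0.05. These shares also stand beside such counts of the lists below. The receptor genes rose in Mcl1Δhep livers: Ifngr2, the signalling chain, had 21.1 to 26.9 CPM in WT and 38.3 to 45.3 in Mcl1Δhep livers (log2 fold change 0.85, SE 0.15, edgeR adjusted p = 0.00468), and Ifngr1, the binding chain, had 23.4 to 28.6 and 35.2 to 46.4 (0.71, SE 0.17, adjusted p = 0.0167). Neither pair of groups overlapped, and the type I receptor gene Ifnar2 fell (-0.50, SE 0.14, adjusted p = 0.0277). In all, 2 of 7 receptor and kinase genes rose and 1 fell, with a median of -0.15. Over all tested genes, edgeR called 10.8% higher and 9.43% lower, shares that also stand beside the counts of the lists below. The call of Ifngr2 was kept in 12 of 12 fits that each left out 1 library, whereas that of Ifngr1 was lost without WT replicate 2 or Mcl1Δhep replicate 2 and that of Ifnar2 without either of these or WT replicate 1.

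Among the transcription factors of the response, Irf1 had 52.4, 19.5, and 36.2 CPM in WT livers and 30.9, 33.8, and 49.0 in Mcl1Δhep livers, overlapping throughout (log2 fold change 0.07, interval -0.57 to 0.72). It was lowest in WT replicate 2 among the 12 libraries, as were 7 of the GTPases. Irf8, a factor of macrophages and B cells, rose from 9.02 to 10.5 CPM in WT livers to 20.1 to 24.4 in Mcl1Δhep livers (1.15, SE 0.14, edgeR adjusted p = 0.00116). Irf2 (-0.57, SE 0.16, adjusted p = 0.0324) and Irf3 (-0.34, SE 0.11, adjusted p = 0.0431) fell, so that 1 of 11 factors rose and 2 fell, with a median of -0.27. The call of Irf8 was kept in 12 of the 12 fits that left out 1 library, and those of Irf2 and Irf3 in 8 and 4. None of 7 negative regulators passed the test by edgeR or DESeq2, and 1 had an unadjusted p under 0.05.

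Other targets of the same cytokine had values of both signs. Of 17 tested interferon-gamma targets, 2 rose in Mcl1Δhep livers and 1 fell, with a median of 0.13. Serpina3g, a protease inhibitor of T cells and macrophages, rose (1.23, SE 0.28, edgeR adjusted p = 0.0131), as did Acod1, which makes itaconate in activated macrophages (2.05, SE 0.66, adjusted p = 0.0461). B2m, the light chain of class I molecules, had 1517 to 1913 CPM in WT and 953 to 1355 in Mcl1Δhep livers and fell (-0.53, SE 0.16, adjusted p = 0.0385). The call of Serpina3g was kept in 12 of 12 fits that left out 1 library, and those of Acod1 and B2m in 3 each. Of 25 type I interferon targets, Ifit1bl1 rose (1.40, SE 0.43, adjusted p = 0.0396) and Herc6 fell (-0.68, SE 0.22, adjusted p = 0.0455), with a median of 0.09, and these calls were kept in 7 and 2 of the 12 fits. Their summed level was 831 CPM in WT replicate 3 and 411 to 574 in the other 11 libraries.

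Partner genes of the GTPases moved in both directions in Mcl1Δhep livers. Among 7 inflammasome genes that act downstream of GBPs, 4 rose: Aim2, a cytosolic DNA sensor (1.58, SE 0.33, edgeR adjusted p = 0.00927), Casp4, which detects lipopolysaccharide (1.12, SE 0.28, 0.0178), the adaptor Pycard (1.19, SE 0.31, 0.0223), and Nlrp3 (0.96, SE 0.29, 0.0355). The remaining call, Gsdmd, the pore-forming gasdermin, fell (-0.48, SE 0.16, adjusted p = 0.0492), and the median of the list was 1.03. Aim2 had 0.343 to 0.958 CPM in WT and 1.74 to 2.48 in Mcl1Δhep livers. Without WT replicate 2, only Aim2 of the 4 was still called, and over the 12 fits that each left out 1 library, Casp4 was called in 9, Pycard in 9, Nlrp3 in 7, and Gsdmd in 2. Of 12 genes of the ubiquitin-like conjugation pathway of autophagy, which guides IRGs and GBPs to vacuoles, only Atg7, its activating enzyme, passed the test by edgeR, and DESeq2 called 2. Atg7 fell from 54.9 to 61.3 CPM in WT livers to 23.6 to 34.8 in Mcl1Δhep livers (-0.95, SE 0.15, adjusted p = 0.00307), and the call was kept in 12 of 12 fits that left out 1 library. In Mcl1Δhep Sting1-/- livers it had 43.8 to 54.0 CPM, above every Mcl1Δhep library. These 2 groups did not overlap for 18.2% of tested genes, and edgeR called 0% between them. Of the 12 autophagy genes, 6 had a positive and 6 a negative log2 fold change between these 2 groups.

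**Figure D5:**
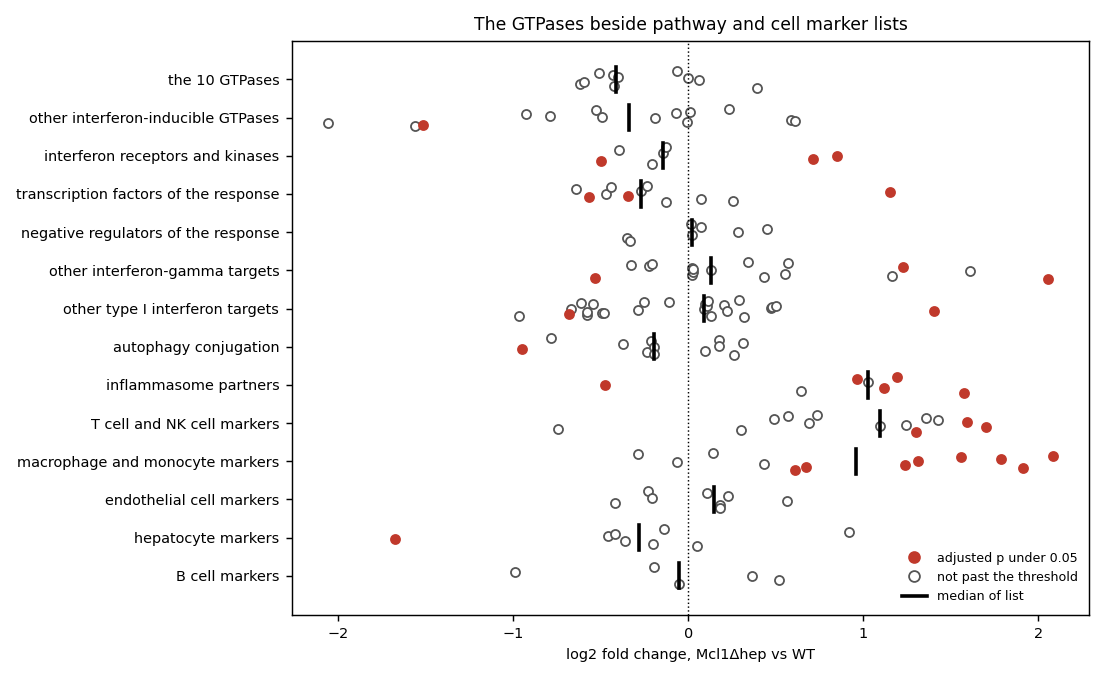
Log2 fold change between Mcl1Δhep and WT livers for the 10 GTPases and for each tested gene of the pathway and cell marker lists (red, edgeR adjusted p under 0.05), with a bar at the median of each list. The GTPases (median -0.41) hold no red point, whereas 8 of 12 macrophage and monocyte markers (median 0.96) do.

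Markers of immune cells were measured beside the GTPases, since macrophages and lymphocytes express these genes too. Of 12 macrophage and monocyte markers, 8 rose and 0 fell in Mcl1Δhep livers, with a median of 0.96 and a summed level of 906 to 1093 CPM against 488 to 741 in WT livers. Cd68 rose by 1.24 (SE 0.22, edgeR adjusted p = 0.00481), Lyz2 by 1.56 (SE 0.29, 0.00521), Ccr2 by 1.91 (SE 0.37, 0.00622), and Ly6c2 by 1.78 (SE 0.38, 0.0101). Without WT replicate 2 or Mcl1Δhep replicate 2, 4 of the 12 were called. Of 13 tested T cell and NK cell markers, Klrb1c (1.59), Cd8a (1.70), and Cd3d (1.30) rose, with a median of 1.10 and a summed level of 10.8 to 15.7 CPM against 7.0 to 9.35. None of these 3 calls was left without WT replicate 2 or without Mcl1Δhep replicate 2. No marker of endothelial cells (8 tested) or B cells (5) passed with edgeR, with DESeq2, or at an unadjusted p under 0.05, and their medians were 0.14 and -0.05. Of 8 hepatocyte markers, Cyp2e1, a cytochrome of centrilobular hepatocytes, fell by 1.68 (SE 0.40, adjusted p = 0.0161), a call lost without Mcl1Δhep replicate 2, with a list median of -0.28. In the livers without Y-linked reads, which leave 1 WT library, 0 genes of these lists and of the pathway lists were called, and the median was 1.07 for macrophage and monocyte markers and 0.90 for T cell and NK cell markers. With the Y-linked share as a covariate and all 12 libraries, 5 macrophage and monocyte markers, 1 inflammasome gene, 2 receptor genes, 1 transcription factor, and 1 other interferon-gamma target were called higher, 1 autophagy gene and 1 hepatocyte marker lower, and 0 T cell and NK cell markers (median 1.23) and 0 type I targets either way. With the percentage of small structured RNAs in the fit, 1 transcription factor was called higher and 1 lower and 0 genes of the other lists, and those medians were 0.78 and 0.41. The part of these cell types in the levels of the GTPases was not tested. In the other comparisons, edgeR called no gene of any of these lists. It called 0% of all tested genes there, except 0.803% between Mcl1Δhep Sting1-/- and Sting1-/- livers. Between Mcl1Δhep Sting1-/- and Mcl1Δhep livers, 11 of 13 T cell and NK cell markers were negative (median -0.59). So were 8 of 12 macrophage and monocyte markers (median -0.12). Between Mcl1Δhep Sting1-/- and Sting1-/- livers, DESeq2 called 2 macrophage and monocyte markers, 1 transcription factor, and 1 other interferon-gamma target. It called 3.16% of all tested genes there. Between Mcl1Δhep Sting1-/- and Mcl1Δhep livers, it called 1 transcription factor and 1 autophagy gene, against 4.74% of genes. In the interaction it called 1 autophagy gene, against 1.14%.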

How the data were processed

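Total RNA from whole livers was sequenced on an Illumina NovaSeq instrument. Per the labels, the authors aligned the reads with STAR to GRCm39 and deposited raw counts per Ensembl gene made with featureCounts. The versions, the annotation release, and the use of strand are not given in the sources used here. Each library held 28826367 to 45266387 counts, and together with 3 libraries per genotype this sets the precision of each value. The labels and the methods name different RNA extraction kits.

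Genotype came from the genotype label of each sample, and replicate numbers came from the sample titles. Differential expression was computed with edgeR 4.0.16 (filterByExpr by genotype, TMM factors, glmQLFit and glmQLFTest, prior count of 2) in R 4.3.3 over all 12 libraries without covariates, with Benjamini-Hochberg adjustment over the 15070 tested genes and a threshold of 0.05. Adjusted p-values are from this fit unless DESeq2 (version 1.42.0) is named, and intervals are 95% intervals of the fit. TPM used the summed exon lengths of GENCODE vM39, in which 1018 identifiers of the files have no entry (at most 0.101% of the counts of a library). Promoter sequences were read from the GRCm39 genome. The fits were run on simulated counts in which 198 of 14842 genes had a log2 change of 2 between Mcl1Δhep and WT libraries. Of these, edgeR recovered 165 with 7 false calls, and DESeq2 recovered 173 with 39 false calls. Smaller changes were not simulated. No 2 libraries of a genotype were duplicates (chi-square per degree of freedom of 43.2 at the least). Tables and figures were made in Python 3.11.15 with pandas 2.3.3 (on numpy 2.4.6) and matplotlib version 3.10.9.

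The members and the gene lists were chosen with earlier results of these data known. By rule, the text names the members, other genes of the GTPase families, Ifng, Irf1, the targeted genes, at most 4 called genes of each other list by lowest adjusted p, and the 5 genes most like the mean of the members. Gsdmd was named after its value was seen, and 1 gene that the rule names is not reported here. Alternatives were RLE normalization, no filter on low counts, DESeq2, the compared groups only, a replicate block, covariates for Y-linked reads and small structured RNAs, libraries without Y-linked reads, and leaving out each library in turn.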

Additional observations from a re-analysis of the deposited data

How the results depend on the processing

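With 3 livers per genotype, the intervals of most GTPases spanned changes in both directions, and the interferon genes had too few reads for a test. The lowest count of a member was 88 reads, for Tgtp1 in WT replicate 2. The WT values of Tgtp1 spanned 2.61 to 10.2 CPM. No alternative that kept all 12 libraries called a member in any comparison. The number called between Mcl1Δhep and WT livers ran from 0 to 3 when 1 library at a time was left out. It was 3 without WT replicate 2 and 2 without Mcl1Δhep replicate 1, where fewer samples entered, and the cause was not tested. In the other comparisons it was 0 throughout. An alternative without the 3 libraries that held Y-linked reads was chosen after seeing the data.

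The following log2 fold changes turned their sign relative to the values given for each comparison above, several of which were near 0, and the cause was not tested. RLE normalization gave 0.018 for Igtp between Mcl1Δhep and WT livers and 0.0077 for Gbp6 between Mcl1Δhep Sting1-/- and Sting1-/- livers. DESeq2 gave 0.018 and 0.0074 for the same values, and a fit of the compared groups only gave 0.021 and 0.0041. Without the filter on low counts, Gbp6 had 0.0023 in the latter comparison. Where the fit took the percentage of small structured RNAs as covariate, Gbp3 had -0.010 and Irgm2 0.016 between Sting1-/- and WT livers, and the interaction was -0.31 for Gbp7, -0.20 for Gbp9, and -0.10 for Iigp1.

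With the Y-linked share as a covariate, the values between Mcl1Δhep and WT livers were -0.0061 for Gbp2 and -0.019 for Gbp9. Between Sting1-/- and WT livers they were -0.068 for Gbp2, -0.049 for Gbp3, -0.21 for Gbp7, -0.011 for Gbp9, and -0.24 for Igtp. Between Mcl1Δhep Sting1-/- and Sting1-/- livers they were 0.0079 for Gbp2, 0.0014 for Gbp6, and 0.0027 for Irgm1, and the interaction was 0.014 for Gbp2 and 0.42 for Igtp. In the libraries without Y-linked reads, the values between Mcl1Δhep and WT livers were -0.050 for Gbp2 and 0.027 for Tgtp1. Between Sting1-/- and WT livers they were -0.081 for Gbp2, -0.13 for Gbp7, -0.25 for Igtp, and 0.018 for Tgtp1. Between Mcl1Δhep Sting1-/- and Sting1-/- livers they were 0.11 for Gbp6 and 0.012 for Irgm1, and the interaction was 0.045 for Gbp2 and 0.56 for Igtp.

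The replicate numbers did not pair the libraries, since same-numbered libraries of different genotypes had correlations of their deviations from -0.54 to 0.25. With the replicate number as a block, 0 members were called, and the values were 0.049 for Tgtp1 between Mcl1Δhep and WT livers, 0.026 for Irgm2 between Sting1-/- and WT livers, and 0.0044 for Gbp6 between Mcl1Δhep Sting1-/- and Sting1-/- livers.

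Leaving out 1 library at a time changed the sign of further values. Between Mcl1Δhep and WT livers, the range was -0.83 to 0.047 for Gbp3, -0.98 to 0.011 for Gbp6, -0.22 to 0.26 for Gbp9, -0.38 to 0.38 for Igtp, -0.43 to 0.48 for Tgtp1, and -0.56 to 0.029 for the median of the 10. That median ran from -0.16 to 0.36 between Sting1-/- and WT livers, from 0.11 to 0.29 between Mcl1Δhep Sting1-/- and Mcl1Δhep livers, from -0.27 to -0.0032 between Mcl1Δhep Sting1-/- and Sting1-/- livers, and from -0.056 to 0.46 in the interaction. Values stayed negative at -1.01 to -0.42 for Gbp7, -0.59 to -0.27 for Irgm1, -0.79 to -0.32 for Irgm2, and -0.58 to -0.26 for Iigp1. Between Sting1-/- and WT livers, the range was -0.25 to 0.63 for Gbp3, -0.20 to 0.78 for Gbp6, -0.13 to 0.35 for Gbp7, -0.098 to 0.28 for Gbp9, -0.28 to 0.19 for Irgm2, -0.060 to 0.69 for Igtp, -0.00059 to 0.22 for Iigp1, and -0.45 to 0.47 for Tgtp1. Between Mcl1Δhep Sting1-/- and Mcl1Δhep livers, it was -0.28 to 0.39 for Igtp and -0.0015 to 0.46 for Gbp9. Between Mcl1Δhep Sting1-/- and Sting1-/- livers, it was -0.082 to 0.11 for Gbp6 and -0.12 to 0.058 for Irgm1. In the interaction, it was -0.40 to 0.48 for Gbp3, -0.012 to 0.97 for Gbp6, -0.099 to 0.38 for Gbp9, -0.034 to 0.44 for Irgm2, -0.67 to 0.088 for Igtp, and -0.35 to 0.57 for Tgtp1.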
